A study of Mus musculus with 8 samples.

Results

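hnRNP and SR splicing factors were followed on 63 array probes for 37 genes, out of 41174 non-control probes and 18883 named genes. Members were taken by name alone: every probe whose accession carries a current symbol that begins with Hnrnp or with Srsf and a number, plus Tra2a, Tra2b, Srrm1, Srrm2, Ptbp1, Ptbp2 and Ptbp3. They comprised 20 hnRNP genes on 36 probes, 3 genes of polypyrimidine tract binding proteins (PTB) on 4 probes, 10 SR protein genes on 18 probes and 4 SR-related genes on 5 probes. The samples were mouse mammary tumour cell lines of the polyoma middle T (PyMT) model in FVB mice, all treated with 50 uM camptothecin (CPT), a topoisomerase I poison, for 36 h. In the first experiment, wild-type WTA cells carried a lentiviral hairpin against Snd1 (LKO1-shSnd1, 3 arrays) or the empty LKO1 vector (3 arrays) and were selected with puromycin. In the second, the Mtdh-knockout line KO2 had received Mtdh with the W391D point mutation, which impairs binding to Snd1 (1 array), or wild-type Mtdh (1 array), from a vector with GFP by which cells were sorted. The hairpin group rests on 1 hairpin and the control on a vector without one, and every sample had received the drug. On each array the sample was labelled with Cy5 and a reference RNA pooled from 11 mouse cell lines with Cy3, so each value below is a log2 ratio of sample over reference.

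Heterogeneous nuclear ribonucleoproteins (hnRNPs) coat nascent transcripts, and many of them repress the use of nearby exons. SR proteins carry a domain rich in arginine-serine repeats and mostly promote exon inclusion by recruiting the spliceosome to exonic enhancers. SR and hnRNP genes often regulate their own messages by including exons that send the transcript to nonsense-mediated decay, so different parts of 1 gene can report different transcripts. Snd1 is a Tudor-domain and nuclease-domain protein known from spliceosome assembly as well as transcription. Topoisomerase I, the target of camptothecin, has also been described as a kinase of SR proteins.

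The upstream sequences of 3 genes are shown because of their results below: Hnrnpdl has the largest decrease, Tra2a the largest increase, and Srsf10 has probes that moved both ways. Each is the 250 bases before the gene's only listed start in the RefSeq promoter table (GRCm38.p6), 5′ to 3′ on the gene's strand. Hnrnpdl lies at chr5:100039223-100039472 on the minus strand, Tra2a at chr6:49264053-49264302 on the minus strand and Srsf10 at chr4:135855821-135856070 on the plus strand. Capitals mark CCAAT, the GC box core GGGCGG or the palindrome TGACGTCA of cyclic AMP response elements, read on either strand; no match overlaps another.
Hnrnpdl: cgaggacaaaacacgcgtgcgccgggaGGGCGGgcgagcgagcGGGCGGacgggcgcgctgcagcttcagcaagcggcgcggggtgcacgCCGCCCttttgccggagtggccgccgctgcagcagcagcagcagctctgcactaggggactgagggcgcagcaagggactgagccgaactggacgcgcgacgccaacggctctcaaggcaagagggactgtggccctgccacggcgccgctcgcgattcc
Tra2a: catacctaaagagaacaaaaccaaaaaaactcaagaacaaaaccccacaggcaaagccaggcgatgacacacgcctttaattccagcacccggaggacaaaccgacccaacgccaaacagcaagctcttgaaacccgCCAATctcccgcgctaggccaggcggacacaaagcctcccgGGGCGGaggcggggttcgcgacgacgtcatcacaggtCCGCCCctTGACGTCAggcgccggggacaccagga
Srsf10: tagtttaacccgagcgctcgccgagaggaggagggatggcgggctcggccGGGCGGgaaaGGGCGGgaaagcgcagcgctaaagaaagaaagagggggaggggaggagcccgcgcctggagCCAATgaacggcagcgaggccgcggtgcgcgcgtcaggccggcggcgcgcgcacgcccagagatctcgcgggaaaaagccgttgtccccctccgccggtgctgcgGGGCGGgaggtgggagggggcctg

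GGGCGG occurred in 26 of 35 member genes with a listed promoter (74.3%), against 32.9% of 27025 genes. The 27025 are all genes of the promoter table, whether measured here or not, whereas every member was measured. CCAAT occurred in 19 of 35 (54.3%), against 34.5% of all. TGACGTCA was present in Tra2a alone of the 35, against 1.62% of all. The Hnrnpdl stretch held 3 matches to GGGCGG and none to the other motifs. These motifs were picked after the values were seen and are a description of letters, with no bearing on which factor binds.

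Every member was measured. The median Cy5 signal of an array was 158 to 363 over a median background of 61 to 72, and all 63 member probes were well above background in Cy5 on all 6 arrays of the first experiment, so the filter on dim probes removed none. The median SD of a member probe over 3 arrays was 0.050 in knockdown and 0.043 in vector. The hairpin's target Snd1 was at -3.23, -3.33 and -3.44 in knockdown, against -2.49, -2.40 and -2.43 in vector. Its log2 fold change was -0.90 ± 0.06 (SE, n = 3 and 3, adjusted p = 8.66e-06 by limma). Log ratios correlated at 0.979 to 0.992 within knockdown, at 0.978 to 0.990 within vector and at 0.854 to 0.874 between them. The labels do not say whether replicates were separate cultures, so p-values measure the spread between these arrays only.

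Which splicing factor transcripts differ in cells with less Snd1 under camptothecin was addressed by setting knockdown against vector. Changes were frequent but small. Of the 63 probes, 12 rose and 19 fell at an adjusted p under 0.05 (limma on 33564 probes), and the other 32 did not pass. The background was of the same order: 23.6% of all probes tested were higher and 22.1% lower, against 19.0% and 30.2% of members, and 45.7% against 49.2% passed in either direction. With median centring in place of loess the members' split was 9 higher and 23 lower, and that of all probes also tilted to lower, with 19.2% higher and 25.3% lower. In the main fit no member reached a 2-fold difference. Of all probes, 2.14% were at least 2-fold higher and 1.40% at least 2-fold lower. Over the alternative settings Hnrnpdl probe A_52_P283910 ran from -1.15 to -0.92, past 2-fold at its lowest. The median log2 fold change of members was -0.04, against 0.02 for all probes, and the median absolute change 0.15 in both sets. Knockdown and vector values did not overlap for 39 of 63 member probes (61.9%) and for 53.9% of all probes. Of the 31 calls, 13 were smaller than 0.3 and 7 were 0.5 or larger on the log2 scale.

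**Figure D1:**
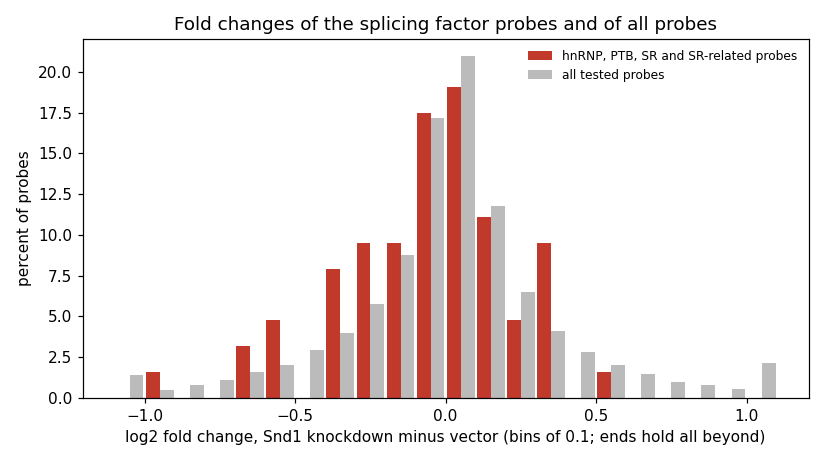
Percent of probes (y axis) in bins of 0.1 of the log2 fold change, knockdown minus vector (x axis), for the 63 member probes (red) and 33564 probes tested (grey). The end bins hold everything beyond -1 and 1, where all probes have entries and members have none.

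By gene, 8 had calls in the higher direction alone, 15 in the lower direction alone, 1 had calls both ways and 13 had no call. Genes with several probes had more chances of a call in these counts. With the brightest probe of each gene, 7 of 37 members were higher (18.9%) and 12 lower (32.4%). Of 17225 genes tested that way, 26.0% were higher and 25.6% lower. hnRNP genes gave 5 higher and 13 lower calls on 36 probes (median -0.09), and SR proteins 5 higher and 4 lower on 18 (median -0.01). The SR-related genes gave 2 higher and 1 lower on 5 probes, and the PTB genes 1 lower on 4. Differences between these families were not tested. All 31 called probes had the same sign on both slides that held the 6 arrays, though the calls used both. The members' median was -0.05 within slide 1 and -0.01 within slide 2.

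**Figure D2:**
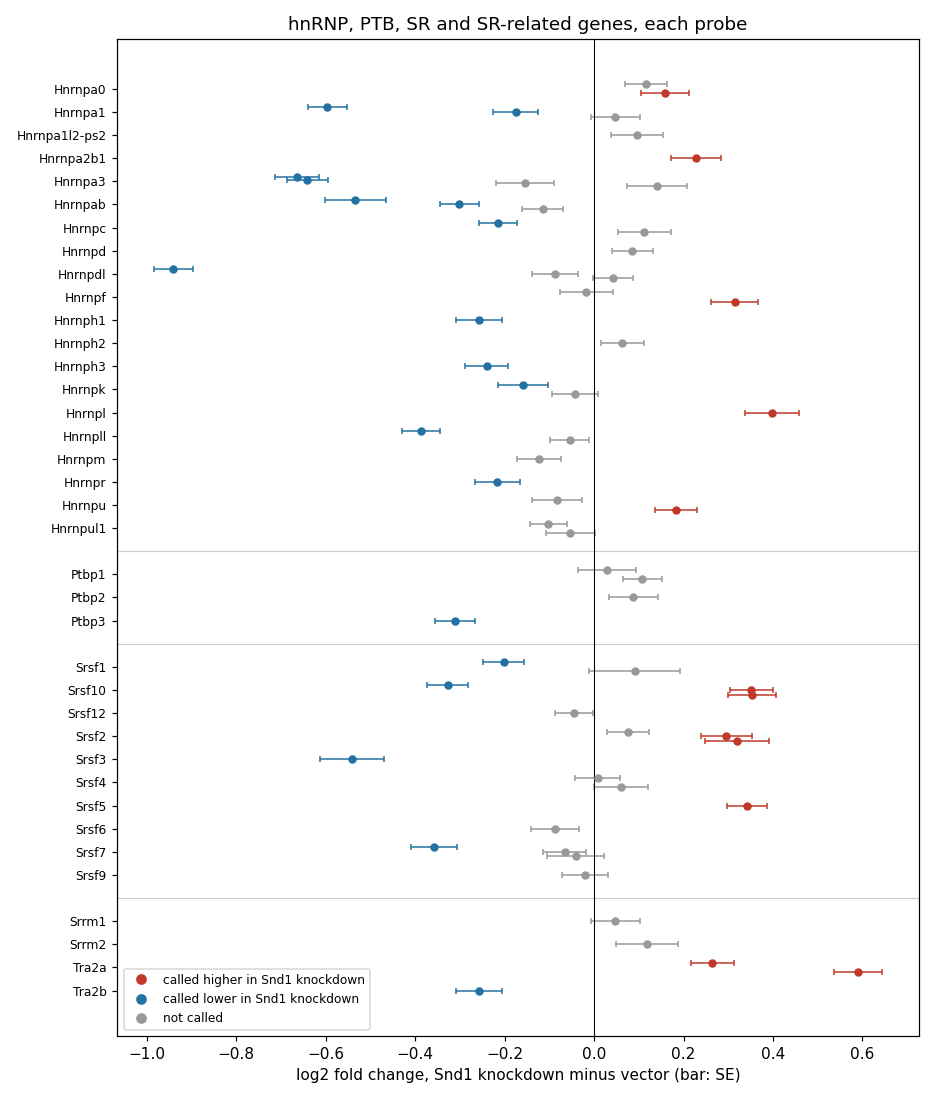
Log2 fold change, knockdown minus vector (x axis), of every member probe, with its standard error as a bar and 1 row a gene, grouped from top to bottom as hnRNP, PTB, SR protein and SR-related. Red probes were called higher and blue probes lower in knockdown. Points of 1 gene often stand apart, as for Hnrnpdl (-0.94 to 0.04) and Srsf10 (-0.33 to 0.35).

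The largest decrease among members was in Hnrnpdl, a relative of hnRNP D that binds AU-rich RNA. Its probe A_52_P283910 stood at -1.61, -1.60 and -1.57 in knockdown, against -0.62, -0.69 and -0.65 in vector. The 3 knockdown values were all below the 3 vector values, with a log2 fold change of -0.94 ± 0.04 (adjusted p = 9.91e-07), a 1.92-fold decrease. The other Hnrnpdl probes, annotated to the same transcript, did not move with it: A_51_P476091 gave 0.04 ± 0.04 and A_52_P292693 gave -0.09 ± 0.05, neither called.

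Hnrnpa3, a close relative of hnRNP A1 and A2B1, had 4 probes. A_51_P272617 was at -0.69, -0.63 and -0.68 in knockdown, against -0.07, 0.02 and 0.04 in vector (-0.66 ± 0.05, adjusted p = 1.09e-05). A_52_P339966 was at -0.78, -0.87 and -0.81 in knockdown, against -0.15, -0.20 and -0.19 in vector (-0.64 ± 0.05, adjusted p = 1.03e-05). On both, knockdown and vector did not overlap. The remaining probes of the gene were not called, at -0.15 ± 0.06 and 0.14 ± 0.07, and the second of these carries another transcript accession and lay far below the reference on all 8 arrays (-3.54 to -2.74).

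Hnrnpa1, the prototype repressor of exon inclusion, fell on A_51_P400784. The values were -1.76, -1.76 and -1.79 in knockdown, against -1.13, -1.20 and -1.18 in vector (-0.60 ± 0.04, adjusted p = 1.1e-05). A second probe fell by less (-0.18 ± 0.05, adjusted p = 0.0212) and the last was not called (0.05 ± 0.06). The related locus Hnrnpa1l2-ps2 was at 0.10 ± 0.06, not called. hnRNP A1 has near-identical copies in the genome, so how much of these signals each copy contributes is uncertain.

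Hnrnpab, which binds RNA and single-stranded DNA, fell on 2 of 3 probes. A_51_P205953 gave -0.12, -0.09 and -0.15 in knockdown, against 0.27, 0.46 and 0.52 in vector (-0.53 ± 0.07, adjusted p = 0.000274), without overlap. Slide by slide, its difference was -0.38 (slide 1) and -0.61 (slide 2). Hnrnpll, known for its part in CD45 splicing in lymphocytes, fell on A_52_P672627, with -0.59, -0.64 and -0.62 in knockdown, against -0.25, -0.21 and -0.22 in vector (-0.39 ± 0.04, adjusted p = 0.000118). Its other probe stayed at -0.05 ± 0.04, not called.

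Smaller decreases were seen for other RNA-binding hnRNPs. Hnrnpab probe A_52_P313080 (-0.30), the G-run binding Hnrnph1 (-0.26) and Hnrnph3 (-0.24), Hnrnpr (-0.22) and Hnrnpc (-0.22 on 1 of 2 probes), which binds uridine tracts, were all called lower. Hnrnpk, which binds C-rich RNA and DNA, passed narrowly (-0.16, adjusted p = 0.0489), a call kept in 8 of 19 alternative settings. Hnrnpm (-0.12), Hnrnpd (0.09), Hnrnph2 (0.06) and both Hnrnpul1 probes (-0.10 and -0.05) did not pass.

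Increases among hnRNPs were led by Hnrnpl, a CA-repeat binding regulator. A_51_P181571 gave -0.13, 0.01 and 0.07 in knockdown, against -0.47, -0.36 and -0.42 in vector (0.40 ± 0.06, adjusted p = 0.00078). Hnrnpf, related to Hnrnph1, rose on A_52_P141161, with 1.19, 1.12 and 1.1 in knockdown, against 0.88, 0.84 and 0.75 in vector (0.31 ± 0.05, adjusted p = 0.00126). In both cases the lowest knockdown value exceeded the highest vector value. The second Hnrnpf probe was at -0.02 ± 0.06, not called.

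Hnrnpa2b1, which also carries RNA to dendrites (0.23), the scaffold-attachment protein Hnrnpu on 1 of 2 probes (0.18) and Hnrnpa0 on 1 of 2 (0.16) rose slightly. With median centring Hnrnpa2b1 and Hnrnpu did not pass. The Hnrnpa0 call was kept in 5 of 18 alternative settings. On the probes called, Hnrnpa3 and Hnrnpa1 fell, and their relatives Hnrnpa2b1 and Hnrnpa0 rose.

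Among SR proteins the largest decrease was in Srsf3, a small SR protein that also serves in mRNA export. Its only probe, A_51_P417016, was at -0.84, -1.0 and -1.01 in knockdown, against -0.31, -0.52 and -0.40 in vector (-0.54 ± 0.07, adjusted p = 0.000338), with no overlap. Srsf7, its near relative with a zinc knuckle, fell on A_51_P466673, with -0.55, -0.43 and -0.44 in knockdown, against -0.09, -0.16 and -0.11 in vector (-0.36 ± 0.05, adjusted p = 0.000504). The other Srsf7 probes were not called, at -0.07 and -0.04. Srsf1, a founding member of the family, was called lower on 1 probe (-0.20 ± 0.05, adjusted p = 0.00691) and not on the other (0.09 ± 0.10), whose knockdown values ranged from 0.34 to 0.78.

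Srsf2, which binds exonic enhancers and promotes inclusion, rose on 2 of 3 probes. A_52_P482355 gave 0.90, 1.14 and 1.14 in knockdown, against 0.71, 0.77 and 0.74 in vector (0.32 ± 0.07, adjusted p = 0.00611). A_51_P262432 gave -0.12, 0.06 and 0.05 in knockdown, against -0.33, -0.29 and -0.28 in vector (0.30 ± 0.06, adjusted p = 0.00304). Neither probe overlapped between groups, and the last one stood at 0.08 ± 0.05, not called. Srsf5 rose as well: A_52_P50090 was at 0.40, 0.41 and 0.37 in knockdown, against 0.04, 0.10 and 0.02 in vector (0.34 ± 0.04, adjusted p = 0.000321).

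Srsf10 encodes an SR protein that becomes a splicing repressor when dephosphorylated, and its probes were called in opposite directions. A_52_P250968 was higher, at 0.34, 0.28 and 0.28 in knockdown, against 0.04, -0.13 and -0.06 in vector (0.35 ± 0.05, adjusted p = 0.000833). A_52_P478532 was higher too, at -0.33, -0.31 and -0.24 in knockdown, against -0.69, -0.61 and -0.63 in vector (0.35 ± 0.05, adjusted p = 0.000426). A_51_P519592 was lower, at -0.31, -0.28 and -0.28 in knockdown, against 0.07, 0.06 and -0.02 in vector (-0.33 ± 0.05, adjusted p = 0.000449). Each of the 3 separated the groups completely. The lower probe and the first of the higher ones carry the same transcript accession, so the annotation does not tell them apart. From the Cy5 channel alone the lower probe kept its direction (adjusted p = 0.0582) without passing.

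Srsf4 (0.01 and 0.06), Srsf6 (-0.09), Srsf9 (-0.02) and Srsf12 (-0.05) were not called on any probe.

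Tra2a and Tra2b, relatives of the fly protein Transformer-2 that bind purine-rich enhancers, moved apart. Tra2a probe A_52_P591431 had the largest increase of all members, at 1.36, 1.53 and 1.47 in knockdown, against 0.85, 0.87 and 0.86 in vector (0.59 ± 0.05, adjusted p = 3.87e-05), a 1.51-fold rise. Its second probe rose by 0.26 ± 0.05 (adjusted p = 0.00199), and Tra2a was the only gene with several probes that all passed in 1 direction. Tra2b fell by 0.26 on the log2 scale (adjusted p = 0.00353), with -1.10, -1.06 and -1.07 in knockdown, against -0.74, -0.88 and -0.84 in vector. From the Cy5 channel alone neither the second Tra2a probe (adjusted p = 0.432) nor Tra2b (adjusted p = 0.303) passed. The SR-related matrix proteins Srrm1 (0.05) and Srrm2 (0.12) were not called.

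Of the PTB genes, which repress exons flanked by pyrimidine tracts, Ptbp3 fell (-0.31 ± 0.04, adjusted p = 0.000523), at -0.02, -0.10 and -0.04 in knockdown, against 0.26, 0.25 and 0.26 in vector. Ptbp1 (0.11 and 0.03) and its neuronal relative Ptbp2 (0.09) were not called.

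**Figure D3:**
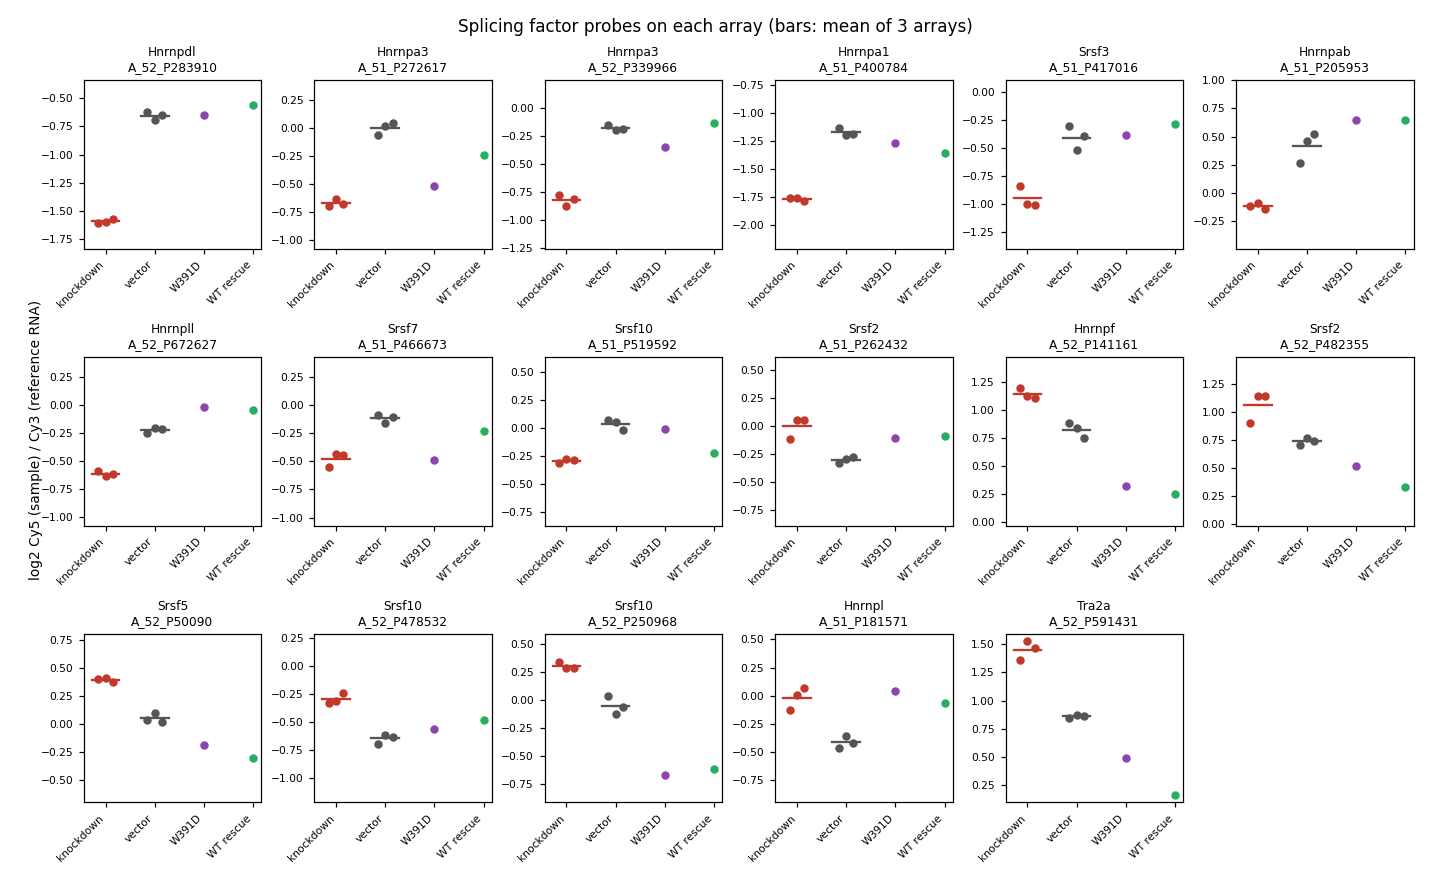
Log2 ratio of sample over reference (y axis, each panel spanning 1.5) on all 8 arrays for the 8 lowest and 8 highest called member probes and the remaining Srsf10 probe. Panels run from the largest decrease (Hnrnpdl, -0.94) to the largest increase (Tra2a, 0.59), points are single arrays and bars are means of 3 arrays. Knockdown and vector points do not overlap in any panel, but the panels were picked among called probes. Of all probes, 53.9% do not overlap either.

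Probes of 1 gene often disagreed. Of 18 member genes with more than 1 probe, 13 had called and uncalled probes side by side, 1 had calls in both directions, 1 had every probe called the same way and 3 had no call. Among all 5895 named genes with several probes, 39.1% had called and uncalled probes, against 72.2% of members. Calls in both directions were near the background, at 5.56% of members and 4.80% of all such genes. Whether 2 probes of a gene changed by different amounts was tested directly, with limma on the difference between their log ratios over 9788 same-gene pairs. In 24 of 35 member pairs (68.6%) the changes differed at an adjusted p under 0.05, against 37.9% of all pairs, and 13 of 18 genes had such a pair, against 42.1% of all such genes. From the Cy5 channel alone 14 of the 35 member pairs differed. The share of all pairs was not computed there, so whether the members' excess remains is not known. Genes with more probes have more chances of a differing pair or of mixed calls, and pairs that share a probe are not independent. Whether brightness or the number of probes per gene has a part in these shares was not tested.

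The widest gap was in Hnrnpdl, where A_51_P476091 exceeded A_52_P283910 by 0.98 ± 0.06 (adjusted p = 8.58e-06). In Hnrnpa3, A_51_P222088 exceeded A_51_P272617 by 0.81 ± 0.09 (adjusted p = 0.000203). In Srsf10, A_51_P519592 lay below A_52_P250968 (-0.68 ± 0.07, adjusted p = 8.85e-05), while the 2 rising probes differed by 0.00 ± 0.08. The files give no probe sequence or position within the transcript, so which exons each probe reads is not analysed here.

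The rescue arrays set Mtdh that binds Snd1 poorly beside wild-type Mtdh. Mtdh RNA itself was lower in W391D: A_51_P158822 was at -0.10, against 0.42 in wild-type rescue (-0.52). Mtdh probe A_52_P358349 was at -0.16, against 0.01 (-0.18). The rescue arrays also lay on different slides, scanned separately. The mutation, the level of Mtdh and the slide cannot be told apart here. Members hardly differed between the W391D and wild-type rescue, and with 1 array a group there is no replicate check and no test. All 63 probes were well above background on both arrays. Differences, W391D minus wild type, ran from -0.31 to 0.40 with a median of -0.01 (0.00 over all 35206 probes measured), and 30 of 63 were above 0. None was 0.5 or more apart on the log2 scale, a distance that 0.358% of all probes reached.

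Srrm2, the spliceosomal scaffold of nuclear speckles, had the largest positive difference, at -0.58 in W391D and -0.98 in wild-type rescue (0.40). Tra2a probe A_52_P591431 followed, at 0.49 in W391D and 0.16 in wild-type rescue (0.33), while its other probe gave -0.04. Hnrnpa0 (0.22), Srsf10 probe A_51_P519592 (0.21) and Srsf9 (0.20) came next. At the other end stood Hnrnpa3, with -0.30 in W391D and 0.02 in wild-type rescue on A_51_P443482 (-0.31), and with -0.27 and -0.22 on the probes that fell in knockdown. Srsf7 probe A_51_P466673 gave -0.49 in W391D and -0.23 in wild-type rescue (-0.26). Hnrnpul1 gave -0.18 on A_52_P573366 and 0.09 on its other probe. All 4 Hnrnpa3 probes and all 3 Srsf7 probes were lower in W391D. Other genes also kept 1 sign: all 3 Hnrnpa1 probes were higher (0.06 to 0.09) and all 3 Hnrnpab probes lower (-0.04 to -0.01). The SD of the difference over all probes measured was 0.14, larger than any of these Hnrnpa1 and Hnrnpab differences. The share of all genes whose probes keep 1 sign was not counted. Hnrnpdl probe A_52_P283910, with the largest decrease in knockdown, was at -0.65 in W391D and -0.56 in wild-type rescue (-0.08).

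**Figure D4:**
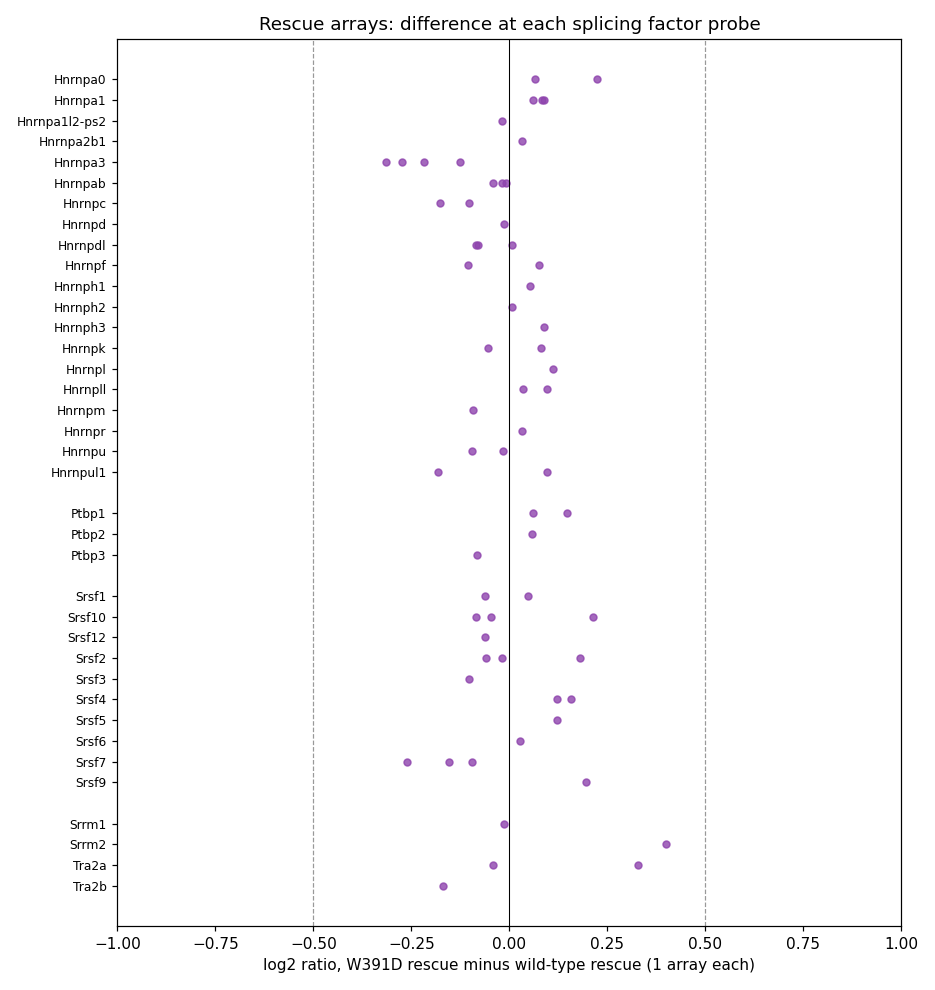
Difference of log2 ratios, W391D minus wild-type rescue (x axis), at each member probe, 1 row a gene and 1 array a group. Dashed lines mark 0.5 in either direction, which no probe reaches; the 4 Hnrnpa3 points lie left of 0 and Srrm2 lies farthest right at 0.40.

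The KO2 line differed from WTA vector cells at many probes, members and others alike, and line, Mtdh and slide cannot be told apart there. Both rescue values lay above all 3 vector values for 21 member probes (33.3%) and below them for 30 (47.6%), against 33.7% and 29.1% of 33551 probes. Whether these shares differ was not tested. The gap was widest for Srrm2, at -0.58 (W391D) and -0.98 (wild type), against -1.59 to -1.77 in vector.

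Relative to the pooled reference, 43 of 63 probes were below 0 in vector cells on average. The mean was under -1 for 7 probes, among them Srsf6 (-2.05 ± 0.05, SD, n = 3) and Ptbp2 (-1.82 ± 0.08). It exceeded 1 for 1 probe, A_52_P218537 of Hnrnpc (1.01 ± 0.05). The matching shares of all probes were not counted, and these ratios depend on what the reference cell lines express.

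Other genes of splicing were counted from fixed lists, with the brightest probe of each gene, against 26.0% higher and 25.6% lower of 17225 genes. Of 10 genes of the U1 snRNP and its partner proteins, which serve 5′ splice site recognition, 4 rose and 4 fell (median -0.04). Prpf39 was up (0.91 ± 0.07), and Snrpc (-0.38) and the partner protein Tial1 (-0.47) were down. Of 19 measured genes of the U2 snRNP and branch site 3 rose and 7 fell (median -0.05), among them Sf3b4 up (0.74 ± 0.05) and Sf3a3 (-0.58), U2surp (-0.50) and Snrpa1 (-0.45) down. Of 23 tri-snRNP genes 4 rose and 11 fell (median -0.09), and those with the smallest p-values were Lsm5 (-1.12 ± 0.05), the peptidyl-prolyl isomerase Ppih (-0.81), Lsm3 (-0.80) and Lsm2 (-0.42).

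Of 8 Sm core genes 1 rose and 4 fell (median -0.15): Snrpn (-0.98 ± 0.08), Snrpg (-0.66), Snrpd1 (-0.50) and Snrpd2 (-0.19). The Prp19 complex and catalytic step gave 5 up and 6 down of 18 (median 0.06), with Syf2 (0.75 ± 0.06), Bcas2 (0.52), Bud31 (0.29) and Snw1 (-0.41). Other regulators of alternative splicing gave 11 up and 14 down of 37 (median 0.00), including Celf5 (1.85 ± 0.08), Rbfox2 (0.76), Celf1 (-0.78) and the paraspeckle protein Pspc1 (-0.86). Of 9 SR protein kinases and import factors 3 rose and 2 fell (median 0.09): the kinases Clk3 (0.22) and Clk1 (0.20) were higher, and the kinase Srpk2 (-0.58) and the import receptor Tnpo3 (-0.24) lower. Of 9 nonsense-mediated decay genes 4 rose and 2 fell (median 0.12), with Smg5 (0.28) and the helicase Upf1 (0.26) up and the kinase Smg1 (-0.57) down. Top1 itself was at 0.05 ± 0.05 (adjusted p = 0.480).

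Genes of proliferation and of cell identity also moved in the same arrays, many by more than any member. All 15 listed G2/M genes fell (median -1.23), with Ccnb2 (-1.54 ± 0.05), Birc5 (-1.51), Cenpe (-1.49) and Aurkb (-1.30) having the smallest p-values. Of 8 mammary epithelial markers 1 rose and 6 fell (median -0.63), with the smallest p-values for Elf5 (-2.03), Krt14 (-1.15), Krt8 (-0.86) and Epcam (-0.73), and their summed ratio was 29.9 to 36.0 in knockdown and 44.0 to 52.5 in vector. Of 9 fibroblast markers 6 rose and none fell (median 0.20), with the smallest p-values for Postn (2.72), Pdgfrb (2.44), Col1a1 (2.39) and Col1a2 (0.40), with a summed ratio of 2.96 to 3.01 in knockdown and 0.843 to 0.895 in vector. Leukocyte markers had 1 up and 2 down of 6 tested, Cd3e (0.14), Csf1r (-0.30) and Cd14 (-0.47), with sums of 3.80 to 4.04 in knockdown and 3.97 to 4.07 in vector. Endothelial markers had 1 up and 2 down of 5 tested, Kdr (0.67), Emcn (-0.30) and Cdh5 (-0.54), with sums of 9.81 to 11.4 in knockdown and 10.7 to 12.5 in vector, and Tek was not well above background on any of the 6 arrays. In bulk RNA fewer cells of a type and less RNA per cell cannot be told apart, and the part of these shifts in the splicing factor changes was not tested.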

How the data were processed

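Each of 8 arrays held 1 sample in Cy5 and reference RNA in Cy3, per the labels. Spot and local background intensities were deposited as medians over pixels for either dye, without normalization, from Agilent Feature Extraction 11.0.1.1 per the file headers (9.5.3.1 per the submitters' processing notes). The deposited log10 ratios of Cy5 to Cy3 were background-subtracted and dye-normalized by the same software, per the file headers. The authors' deposited value table holds log2 ratios: each column matched its own array's scanner ratios (r 0.988 to 1.000, with 93.9% to 98.0% of 41156 probes equal within 0.01). Its column medians were 0.091, 0.105 and 0.118 (knockdown), 0.146, 0.119 and 0.116 (vector), 0.035 (W391D) and 0.026 (wild-type rescue), so arrays were not centred.

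Here, intensities were corrected by normexp with an offset of 50 and normalized within arrays by loess in limma 3.58.1 (R 4.3.3). Control spots (1639) and outlier spots (77 to 142 per array) were left out, and no spot was saturated. Gene names came from accessions without version, matched to a RefSeq table of GRCm38.p6, which named 27668 of 41174 probes. Probes had to be well above background in Cy5 on 3 or more of 6 arrays; 33564 were tested with lmFit and eBayes, without a block, and Benjamini-Hochberg adjustment over all of them. Values on every array were given for the 8 highest and 8 lowest called probes, all probes of a gene called both ways, the 5 highest and lowest rescue differences, and Snd1. Other members were given by fold change and call, and of each other list up to 4 called genes with the smallest p, some of which are not reported here. Members, lists and rules were chosen with earlier results of these data known. Added after seeing the data were the array values of Tra2b, Ptbp3, Srsf1 and Hnrnpa3 beyond that rule, the test of probe pairs and the motifs. The ratios to the reference, the setting of rescue beside vector and the genes picked by sign in the rescue arrays were also added then.

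Replicates 1 of knockdown and vector shared a slide, and the other 4 arrays of these groups shared another. The W391D and wild-type rescue arrays were on separate slides. Same-numbered arrays deviated together (correlations of deviations 0.570, 0.308 and 0.312), and an alternative therefore treated the numbers as pairs. Arrays of the second slide with different numbers did so as well (0.369 and 0.216), on either side of the same-numbered values there (0.308 and 0.312). Between slides the correlations were -0.480 to -0.350. On the first slide number and slide coincide. Alternatives were no background correction, Feature Extraction ratios, the value table, median centring, scaling between arrays, Cy5 alone, other dim filters, blocks for replicate number and slide, a trended robust eBayes, a stricter threshold, each replicate left out, the second slide alone and 1 probe a gene. The fit was tried on simulated data with independent noise on each array and planted changes larger than any member's in the main fit. That trial does not check the fit for smaller changes or for deviations shared within a slide.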

Additional observations from a re-analysis of the deposited data

How the results depend on the processing

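Over 20 alternative settings the counts of member probes called stayed within 1.5 times 12 higher and 19 lower, except with 1 probe a gene (7 higher and 12 lower, and 4686 and 4576 over all genes), where fewer probes were tested. The whole table's 7918 higher calls became 4894 from the Cy5 channel alone, and the 24 differing member pairs became 14 there; the cause was not tested. With the replicate block 13 member probes were higher and 19 lower, and 9040 and 8112 of all probes. The replicate block ended no call on a member probe. Leaving out 1 replicate gave 11 to 13 higher and 17 to 19 lower members, and 6823 to 7830 and 6441 to 7362 of all probes. It also gave 17 to 23 differing member pairs and -0.95 to -0.84 for Snd1. The share of all pairs that differ was computed in the main fit alone. The rescue median of -0.01 was 0.0200 by the Feature Extraction ratios and by the value table and -0.0831 with median centring; the cause was not tested. Of 332 alternative values for the 8 highest and 8 lowest called probes and the remaining Srsf10 probe, 331 kept direction and side of the threshold, and the exception is Srsf10 from the Cy5 channel. From that channel alone Tra2b, the second Tra2a probe, Srsf1, Hnrnph3, Hnrnpu, Hnrnpk, Hnrnpa0, 1 Hnrnpab and 1 Hnrnpa1 probe did not pass either. Of 520 counts for the other lists 72 moved by over 1.5 times. The number of arrays limits precision, and calls near 0.16 on the log2 scale, as for Hnrnpk and Hnrnpa0, were lost under most settings.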
